A study of Homo sapiens with 8 samples.

Results

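Solute carriers (SLC) are membrane proteins that move sugars, amino acids, ions, metals, nucleotides and cofactors across the plasma membrane and the membranes of organelles. The numbered SLC families are grouped by sequence, and most members of a family share a class of substrate. Proliferating carcinoma cells rely on a few of them for glucose uptake (SLC2A1), exchange of large neutral amino acids (SLC7A5 with SLC3A2), glutamine (SLC1A5, SLC38A2) and lactate export (SLC16A3). N6-methyladenosine (m6A) is a methyl mark that the METTL3-METTL14 complex places on adenosines of mRNA, most often in a GGAC or related sequence, in long exons and around the stop codon and in the 3′UTR.

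The SLC genes expressed in HCT116 cells were examined with and without *Fusobacterium nucleatum*. Members were chosen by a symbol that starts with SLC and a number, and by a mean of at least 1 FPKM (fragments scaled to transcript length and to the mapped total) over the 4 input libraries. Of 374 such symbols in a table of 19475 genes, 200 were members, 174 lay under the floor, and 75 of the latter were at 0 in every library. Only levels chose them, so levels are described here without a test. Just inside the floor were SLC35E3 at 1.03 FPKM and SLC17A7 at 1.05 FPKM, and just outside were SLC43A2 at 0.994 FPKM and SLC10A7 at 0.899 FPKM. A total of 195 members are transporters or close relatives of transporters. The other 5 carry the letters for another reason: SLC2A4RG is a DNA-binding regulator, SLC4A1AP and SLC7A6OS are named after a neighbour or partner, and SLC9A3R1 and SLC9A3R2 are PDZ scaffold proteins that bind a sodium-hydrogen exchanger.

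HCT116 is an established human colorectal carcinoma line. Cells had received PBS (Control) or the bacterium (FUSO) for 2 h, at 100 bacteria per cell. Polyadenylated RNA was fragmented and sequenced before (input) and after (IP) pull-down with an m6A antibody, in 2 replicates per group, which made 8 samples in 4 groups. The methods of the study call the replicates biological, while the labels do not say whether they were separate cultures, so p-values here measure the spread between these libraries.

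Input libraries gave the expression values and each IP library, with its input, gave 1 list of m6A peaks. Depth is known only relative to Control 1, at 1.12 for Control 2, 1.24 for FUSO 1 and 0.911 for FUSO 2, and the depth of the IP libraries is unknown. The epithelial markers EPCAM (162 to 184 FPKM), KRT8, KRT18 and KRT19 were high and CDX2 was present at 2.73 to 3.73 FPKM, whereas VIL1 was at or near 0. Of the markers of other cells, COL1A2, DCN and CD3E were at 0 in every library, PTPRC and PECAM1 were at or near 0, and COL1A1 was at 3.78 to 5.72 FPKM.

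The sequences shown first come from m6A regions of highly expressed nutrient carriers that had very low p-values in every list. The letters are from GRCh37 (hg19), on the strand of the mRNA, 5′ to 3′, with T for U. Capitals mark the GGAC motif closest to the middle of the region that has 10 bases on either side. The 5 regions below were called in all 4 lists.
SLC2A1, 3′UTR: tatgtcctaaGGACacactaatcg
SLC3A2, last exon: cctctcggctGGACtgcaggcctc
SLC7A5, 3′UTR: aggaggcagtGGACatcgtaggca
SLC16A3, last exon: actcgggggtGGACttgcgggagg
SLC20A1, coding sequence: ttcccagcgtGGACttgaaagagg

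The next set comes from the regions called in one group of libraries only. The first 3 lay in regions with a peak in both Control lists and in no FUSO list (lost regions), and the last lay in a region with the reverse pattern (a gained region).
SLC7A5, first coding exon: ccaagagcgcGGACggctcggcgc
SLC6A8, first coding exon: gtgggcctggGGACacccggcggc
SLC2A4RG, coding sequence: atgttggtgtGGACacgctgaccg
SLC35B1, 3′UTR: taggaatatgGGACtgagttccag

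Carriers of the inner mitochondrial membrane led the levels. SLC25A5, an ADP/ATP carrier, had Control values of 393 and 422 FPKM and FUSO values of 406 and 410 FPKM. SLC25A3, the mitochondrial phosphate carrier, had Control values of 347 and 351 FPKM and FUSO values of 338 and 344 FPKM. SLC25A39, which supplies mitochondria with glutathione, had a mean of 214 FPKM, and SLC25A6, a further ADP/ATP carrier, of 153 FPKM. Reads of these carriers are less certain than the values look, since SLC25A5 has many processed pseudogenes and SLC25A6 lies in the region shared by the X and Y chromosomes.

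Below them stood the nutrient carriers of the plasma membrane. SLC3A2, the chain that escorts several amino acid carriers to the cell surface, had a mean of 126 FPKM, and its partner SLC7A5 of 117 FPKM. SLC38A2, a sodium-coupled importer of small neutral amino acids, had a mean of 112 FPKM, the lactate exporter SLC16A3 of 102 FPKM, the glucose carrier SLC2A1 of 90.2 FPKM and the phosphate importer SLC20A1 of 85.7 FPKM. The 4 highest members held 31.0% of the summed mean FPKM of all members and the 10 highest held 48.6%. At the other end, 128 members were at or under 10 FPKM, and the median member was at 6.20 FPKM, against 9.45 FPKM over the 11088 genes at or above the same floor.

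**Figure D1:**
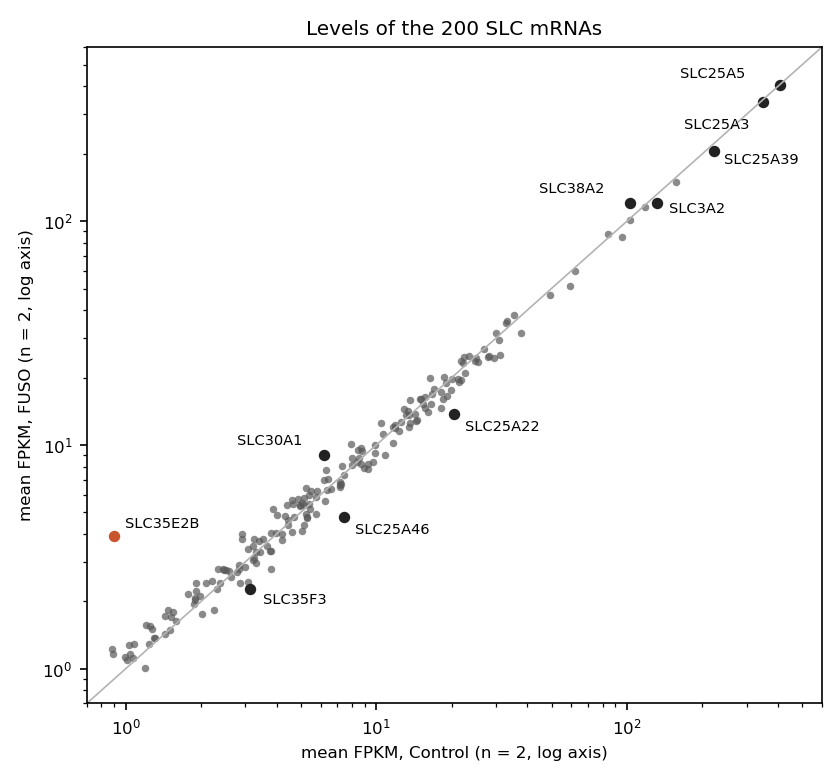
Mean FPKM of the 2 FUSO libraries (vertical, log axis) against the mean of the 2 Control libraries (horizontal, log axis), 1 point for each of the 200 SLC mRNAs, with the line of equal levels. Most points lie on the line, SLC35E2B stands above it and SLC25A46 and SLC25A22 stand below it.

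The first comparison asked which SLC mRNAs differed between FUSO and Control cells. SLC35E2B, an uncharacterised relative of the nucleotide sugar carriers, was the only member called higher. It had Control values of 1.06 and 0.740 FPKM and FUSO values of 3.73 and 4.07 FPKM, so the groups did not overlap. Its Control mean lay under the floor of 1 FPKM, so it was a member only through its FUSO values. On the log2(FPKM + 1) scale, which understates changes of low genes, the difference was 1.37 (SE 0.118, n = 2 per group, limma adjusted p = 0.0131 over 11088 genes). In bulk RNA, more cells with a transcript and more of it per cell cannot be told apart. No member fell at an adjusted p under 0.05. Over all genes tested, 0.667% passed that threshold as higher in FUSO and 0.135% as lower. The call for SLC35E2B was lost without FUSO 1 (adjusted p = 0.119), without FUSO 2 (adjusted p = 0.12) and with no filter on low values (adjusted p = 0.0528).

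The value of SLC35E2B is tied to that of its neighbour copy SLC35E2. Of 5811 windows of 50 bases in the exons of SLC35E2B, 3281 (56.5%) stood in identical form elsewhere on chromosome 1, near SLC35E2 among other places, so the split of reads between both genes is uncertain. SLC35E2 had Control values of 1.83 and 1.27 FPKM and FUSO values of 1.85 and 1.75 FPKM, and the groups overlapped. The pair summed to 2.89 and 2.01 FPKM in the Control libraries and to 5.57 and 5.83 FPKM in the FUSO libraries, and it was higher in both FUSO libraries. Reads were not split anew here, and a sum of FPKM moves with the lengths used for each gene. SLC35E2B made up 36.7% and 36.8% of that sum in Control and 66.9% and 69.9% in FUSO. The nearby genes MIB2, CDK11A and CDK11B were lower in both FUSO libraries, none at an adjusted p under 0.05. MIB2 had Control values of 24.1 and 24.1 FPKM and FUSO values of 18.3 and 18.3 FPKM (limma adjusted p = 0.0973). The limma adjusted p was 0.356 for CDK11A and 0.254 for CDK11B.

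Before adjustment, at p under 0.05, 10 members (5.0%) were higher in FUSO and 9 (4.5%) were lower, against 7.04% and 6.45% of all genes tested. These shares were below the background, so the 19 members are described here as values and not as changes. After SLC35E2B, the largest difference upward was SLC30A1, the zinc exporter of the plasma membrane and a target of the zinc sensor MTF1. It had Control values of 5.45 and 6.95 FPKM and FUSO values of 9.10 and 8.85 FPKM, without overlap (log2 difference 0.48, SE 0.116, limma adjusted p = 0.224). Without Control 2 its adjusted p was 0.0346. The riboflavin carrier SLC52A3 had Control values of 2.86 and 2.94 FPKM and FUSO values of 3.67 and 4.33 FPKM.

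SLC38A2 was the most abundant of the 10, with Control values of 104 and 103 FPKM and FUSO values of 127 and 114 FPKM (log2 difference 0.22, SE 0.0699, limma adjusted p = 0.295). SLC50A1, a sugar carrier, had Control values of 16.8 and 16.0 FPKM and FUSO values of 20.7 and 19.3 FPKM. The others were the monocarboxylate family member SLC16A6, the organic cation family member SLC22A18, and 3 mitochondrial carriers: SLC25A30, SLC25A14 and the calcium-regulated ATP-Mg/phosphate carrier SLC25A25. Their log2 differences lay between 0.24 and 0.35, and their groups did not overlap.

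Among the 9 lower members were carriers of nucleosides and glucose. SLC29A2, an equilibrative nucleoside carrier, had Control values of 18.9 and 17.2 FPKM and FUSO values of 14.2 and 15.0 FPKM (log2 difference -0.29, SE 0.0781, limma adjusted p = 0.253). SLC35F3, a member of the same family as SLC35E2B, had Control values of 3.28 and 2.99 FPKM and FUSO values of 2.01 and 2.51 FPKM. In both, the FUSO libraries lay below the Control libraries.

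SLC2A1 had Control values of 91.1 and 99.7 FPKM and FUSO values of 85.2 and 84.9 FPKM (log2 difference -0.16, SE 0.0639, limma adjusted p = 0.365). SLC35B1, a carrier of the endoplasmic reticulum that exchanges ATP for ADP, had Control values of 60.9 and 58.2 FPKM and FUSO values of 47.7 and 54.9 FPKM. Also lower were SLC12A8, the vesicular nucleotide carrier SLC17A9, and 2 of the members that are no transporters, SLC2A4RG and SLC9A3R2, with log2 differences between -0.33 and -0.19. None of the 9 had overlapping groups, and the lowest adjusted p among them was 0.25.

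**Figure D2:**
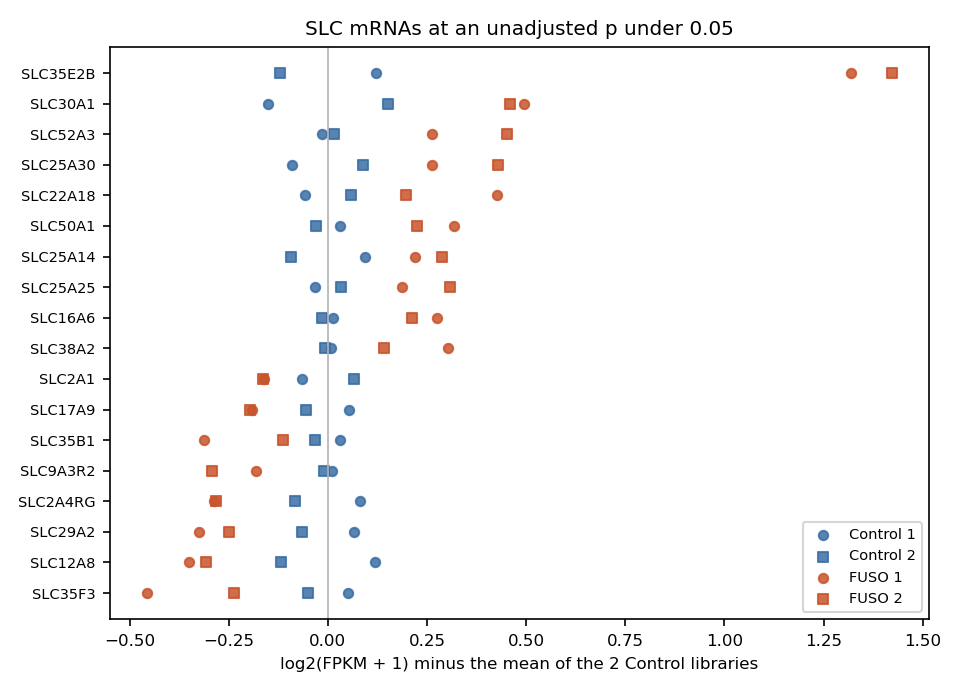
Value of each library for 18 of the 19 SLC mRNAs with an unadjusted p under 0.05, as log2(FPKM + 1) minus the mean of the 2 Control libraries (horizontal). Blue points are Control and orange points FUSO libraries, with circles for replicate 1 and squares for replicate 2. SLC35E2B lies near 1.37, and all other differences are under 0.5 in size.

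Some members with larger differences did not pass the test, and SLC25A46 and SLC25A22 were singled out after their values were seen. SLC25A46, a carrier relative on the outer mitochondrial membrane, had Control values of 7.28 and 7.64 FPKM and FUSO values of 3.11 and 6.39 FPKM (limma adjusted p = 0.39). SLC25A22, a mitochondrial glutamate carrier, had Control values of 21.2 and 19.8 FPKM and FUSO values of 9.28 and 18.2 FPKM (limma adjusted p = 0.414). For both, FUSO 1 was far below the other libraries, and FUSO 2 lay less far below both Control libraries. SLC25A37, the iron importer of mitochondria, was high in replicate 1 of both groups, at 17.2 and 16.8 FPKM, and low in replicate 2, at 9.76 and 10.5 FPKM.

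Across all members, both FUSO libraries lay above both Control libraries for 53 (26.5%) and below them for 50 (25.0%), while 97 overlapped. Over all genes tested the shares were 26.1% above and 21.1% below. The median log2 difference was 0.02 for the members and 0.01 for all genes tested, and the middle range between quartiles ran from -0.10 to 0.11 and from -0.08 to 0.11. A difference over 0.5 in size was seen for 3 members (1.5%) and for 2.38% of all genes tested. The median member had a 95% confidence interval of ± 0.23 on the log2 scale. For such a member, a smaller difference than this would not pass even before adjustment. Calls used p-values adjusted over all genes tested, which asks for a larger difference. SLC30A1, with a log2 difference of 0.48 (SE 0.116), had a limma adjusted p of 0.224. Members without a call may therefore still differ by more than 0.23. The summed FPKM of the members were 3660 and 3619 in Control and 3556 and 3586 in FUSO, between 0.73% and 0.744% of the table. Both FUSO sums lay below both Control sums (two-sided exact permutation p = 0.333, the smallest that 2 against 2 libraries can give).

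The members were also read by role, with each SLC family number assigned to 1 class of substrate. The classes follow the symbol, so that of sugars includes SLC2A4RG, that of amino acids and peptides SLC7A6OS, and that of ions and pH SLC4A1AP, SLC9A3R1 and SLC9A3R2, which are no transporters. Some transporters also move a substrate other than that of their class. Examples are the creatine carrier SLC6A8 in the amino acid and peptide class and SLC35B1 in the nucleotide sugar class. The 37 mitochondrial carriers had a median log2 difference of -0.01, the 29 members of the amino acid and peptide class of -0.01, and the 27 of the ion and pH class of 0.00. Of the 23 metal carriers, 6 had FUSO above Control and 2 below, with a median of 0.05. Only the nucleotide sugar class held a call, SLC35E2B among 24. In the lipid, choline and acetyl-CoA class both FUSO libraries lay above both Control libraries for 6 of 10 members and below them for 1, but not 1 of the 10 reached p under 0.05 before adjustment. In the nucleoside class they lay below for 3 of 4, of which SLC29A2 alone reached that level. Over all genes tested 26.1% lay above and 21.1% below, and no class was tested against that.

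**Figure D3:**
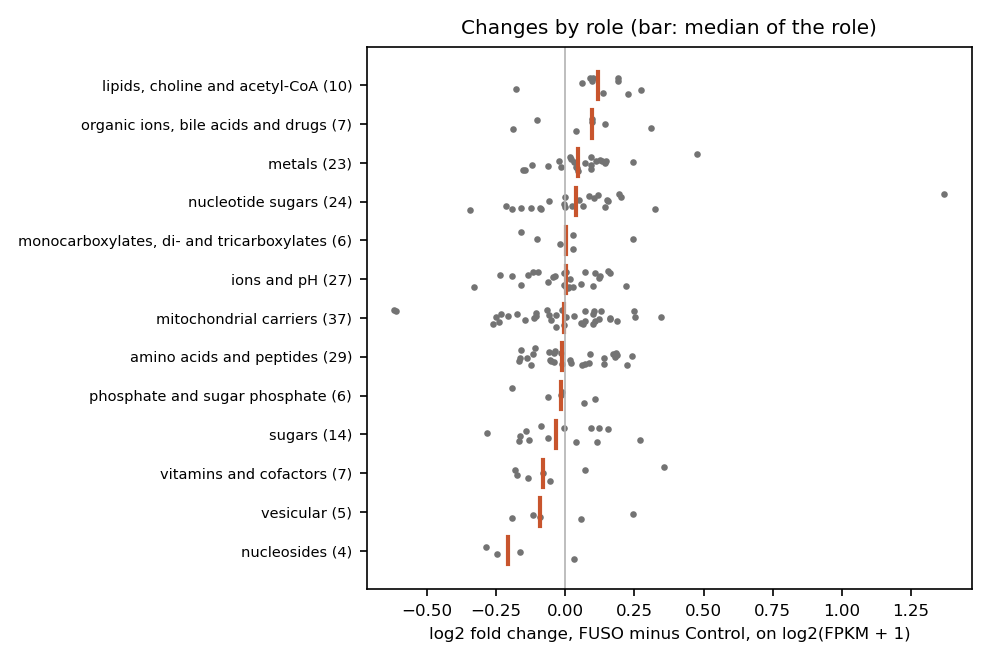
Log2 difference of each SLC mRNA, FUSO minus Control, on log2(FPKM + 1) (horizontal), by role, with the number of members in brackets and an orange bar at the median of the role. SLC48A1, the only member of no listed class, is left out. The medians lie between -0.21 (nucleosides) and 0.12 (lipids, choline and acetyl-CoA), and the points of most roles fall on both sides of 0.

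Of the textbook carriers not yet given, none passed the test. SLC1A5, a glutamine carrier, had Control values of 65.3 and 58.4 FPKM and FUSO values of 62.1 and 57.9 FPKM. SLC7A11, the cystine importer of system xc-, had Control values of 2.42 and 2.23 FPKM and FUSO values of 3.19 and 2.39 FPKM, and the groups overlapped. SLC16A1, a lactate and pyruvate carrier, had Control values of 20.7 and 22.2 FPKM and FUSO values of 19.6 and 18.5 FPKM (limma adjusted p = 0.398). The chloride cotransporter SLC12A2, the iron importer SLC11A2, the zinc and iron importer SLC39A14, the glucose carrier SLC2A3 and the folate carrier SLC19A1 had log2 differences between -0.17 and 0.15, none with an adjusted p under 0.5.

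Other transport genes gave no call either. Of 22 ABC transporters tested, 1 was higher and 2 were lower before adjustment (p under 0.05), where 7.04% and 6.45% of all genes tested were. Of 17 subunits of the vacuolar proton pump, 2 were higher and none were lower at that level. Among 4 subunits of the sodium-potassium pump 1 was higher, and among 2 SLCO genes and 5 partners of transporters (such as BSG, which carries SLC16A3 to the surface) there were none.

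The second comparison asked which SLC mRNAs carried m6A peaks and whether this differed between the groups. A peak in at least 1 list was named after 172 members (86.0%), against 83.9% of all genes tested, and 138 members (69.0%) had a peak in all 4 lists, against 68.7%. In Control 149 and 157 members had a peak, and in FUSO 161 and 150. The means were 153 ± 5.66 (SD, n = 2) in Control and 156 ± 7.78 (SD, n = 2) in FUSO, a difference of 2.5 that was within the spread between lists (two-sided exact permutation p = 0.667). Member peaks numbered 257 and 273 in Control and 279 and 248 in FUSO (two-sided exact permutation p = 1). In both counts the highest and the lowest FUSO list lay on either side of the Control mean.

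Peaks that touched by at least 1 bp of exon on the same strand were joined into regions. The 172 members had 338 regions, of which 179 (53.0%) were called in all 4 lists, against 51.5% of all 22001 regions. A single list called 78 (23.1%), against 25.6% of all regions. SLC7A6 (plus strand) and SLC7A6OS (minus strand) overlap, and each held a region at chr16:68334767-68335336 with similar p-values in every list. Both regions were counted, and whether they are a single signal was not tested. Of the members with a region, 82 had 1, 47 had 2, 22 had 3 and 21 had more. SLC39A3, a zinc importer, had the most, with 6 regions, of which 5 lay off its canonical transcript. SLC38A1, SLC9A8, SLC52A3 and SLC6A17 were among the 10 members with 5 regions. Some of these were thin calls, since neither SLC38A1 nor SLC6A17 had a region in all 4 lists.

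The regions with the lowest p-values included several of the abundant nutrient carriers. SLC7A5 held a region of 1230 bases in its 3′UTR (chr16:87864041-87865270, minus strand, GRCh37) with 17 GGAC motifs, and the deposited p-value was 0 in every list. SLC3A2 (chr11:62653029-62656355, plus strand, 689 bases in 3 exon blocks) and SLC16A3 (chr17:80195282-80197375, plus strand, 1286 bases in 2 blocks) were also listed at 0 in every list. SLC2A1 held a 3′UTR region (chr1:43391822-43392806, minus strand) whose p-values were 1e-195 and 1e-206 for Control and 1e-211 and 1e-168 for FUSO. In SLC20A1 the region with the lowest p-values lay in the coding sequence (chr2:113414817-113417226, plus strand, 718 bases in 3 blocks), with p-values from 1e-235 to 1e-184. SLC25A28, an iron importer of mitochondria singled out after its values were seen, held a region (chr10:101370275-101379922) with lower p-values than those of SLC2A1 and SLC20A1 in every list, from 1e-289 to 1e-224. The regions of the 5 nutrient carriers are those of the first set of sequences, and all were called in both groups.

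High level did not go with a peak for every carrier. SLC25A5, the most abundant member, had no peak in any list, although its transcript of 1307 bases holds 3 GGAC motifs. SLC25A3, with nearly the same level, had 1 region in all 4 lists at its stop codon (chr12:98995033-98995479, plus strand). SLC25A6 had 1 peak of 60 bases in Control 1 only, with a p-value of 0.0021.

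After SLC25A5, the highest members without a peak were SLC25A1 (the mitochondrial citrate carrier, 34.5 FPKM), SLC26A6 (an anion exchanger, 14.0 FPKM), SLC41A3, SLC22A18, SLC39A7, SLC25A15, SLC25A40, SLC25A14 and SLC4A7. The 28 members without a peak had a median of 3.52 FPKM, and those of them with a canonical transcript had a median of 2949 bases and 11 GGAC motifs. Members with a peak had a median of 7.02 FPKM, 3514 bases and 14 GGAC motifs. The part of level, length and motifs in this was not tested.

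By role, every member had a peak among 14 of the sugar class and 24 of the nucleotide sugar class. So did all 6 carboxylate carriers, 6 phosphate carriers and 4 nucleoside carriers. Lower shares were 60.0% in the vesicular class (3 of 5) and 71.4% for organic ions, bile acids and drugs (5 of 7). The lipid, choline and acetyl-CoA class had 80.0% (8 of 10). It was 81.5% in the ion and pH class and 82.6% in the metal class. The amino acid and peptide class had 82.8% and the vitamin and cofactor class 85.7%. Over all genes tested the share was 83.9%, and no class was tested against that. Of the 37 mitochondrial carriers 30 (81.1%) had a peak, and 7 did not. That class had 1.16 regions per member and no lost or gained region. The 27 members of the ion and pH class had 2.22 regions per member, with 2 lost and 1 gained. The 14 of the sugar class had 2.21, with 1 gained in SLC2A11 and 1 lost in SLC2A4RG, which is no transporter. Median transcript length was 2891 bases for the mitochondrial carriers, 4696 for the ion and pH class and 3298.5 for the sugar class.

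SLC regions lay further towards the untranslated ends than regions at large. Of 306 regions placed on the canonical transcript of a member, 47.1% had their midpoint in the 3′UTR, against 34.0% of all placed regions, and 10.5% in the 5′UTR, against 4.97%. The coding sequence held 26.8%, against 45.1%, and the 100 bases on either side of the stop codon held 15.7%, against 15.9%. The last exon held 70.3% of SLC regions and 64.4% of all. The 91 regions outside the last exon lay in exons of a median of 559 bases, where the median exon of these transcripts is 136 bases long. A longer exon has more room for a midpoint, so these medians are not a like comparison. GGAC was found in 77.2% of SLC regions and 72.8% of all regions. It was found in 88.8% of those called in all 4 lists (median 600 bases) and in 52.6% of those called in 1 list (median 91 bases). These are descriptions, and the share of a motif moves with the length of a region.

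**Figure D4:**
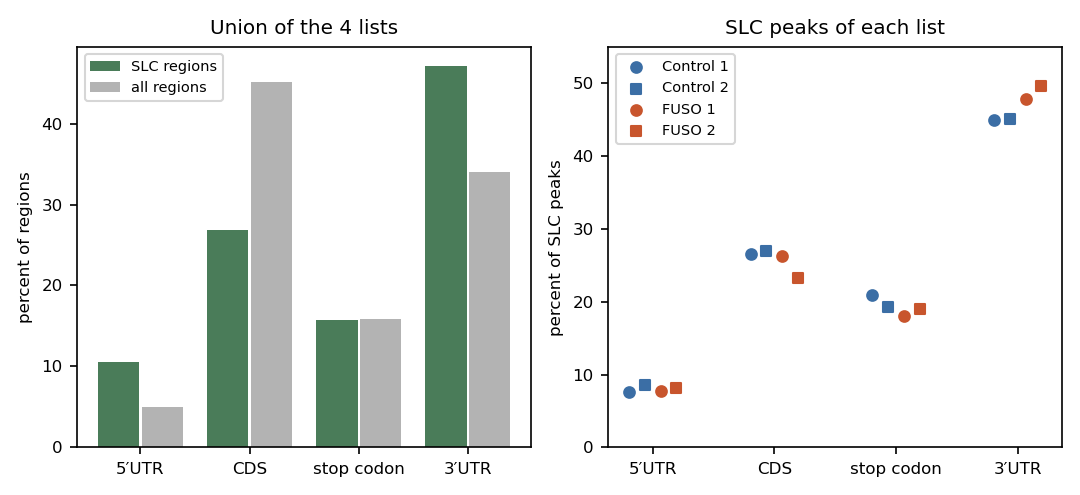
Left, percent of regions whose midpoint lies in the 5′UTR, coding sequence (CDS), within 100 bases of the stop codon or in the 3′UTR, for 306 SLC regions (green) and for all placed regions (grey). Right, percent of SLC peaks in the same places in each list, blue for Control and orange for FUSO. SLC regions are at 47.1% in the 3′UTR against 34.0% for all, and both FUSO lists lie above both Control lists there. The shares of all peaks in each list are not shown.

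The places were also compared between the groups. SLC peaks in the 3′UTR made up 45.0% and 45.1% of the placed SLC peaks in Control and 47.9% and 49.6% in FUSO. Those in the coding sequence made up 26.5% and 27.0% in Control and 26.3% and 23.3% in FUSO. Those within 100 bases of the stop codon made up 21.0% and 19.3% in Control and 18.1% and 19.0% in FUSO, and the last exon held 73.9% and 74.2% against 76.4% and 76.7%. The groups did not overlap in any of these 4 shares, which is as far as 2 lists against 2 can go (two-sided exact permutation p = 0.333 for each, the smallest possible). The 4 shares come from the same peaks, so they are not separate results. Shares over all peaks of each list are not given beside them, so no shift particular to SLC peaks is read from them. The 5′UTR shares overlapped, at 7.56% and 8.61% against 7.72% and 8.19%.

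There were 7 lost SLC regions (2.07%), against 2.64% of all regions, and 6 gained SLC regions (1.78%), against 2.38%. Both shares were near or below the background. The lists hold no value for a place without a call, so a lost region is one that was not called, and not one shown to lack the mark.

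The lost region with the lowest p-value lay in the first coding exon of SLC7A5 (chr16:87902775-87903105, minus strand, 331 bases), where Control 1 gave a p-value of 4e-17 and Control 2 of 1e-13. Its GC content was 75.5%, and the gene kept its 2 other regions, both in the 3′UTR, in all 4 lists. SLC7A5 mRNA had Control values of 124 and 113 FPKM and FUSO values of 115 and 116 FPKM, with overlap. SLC6A8, the creatine carrier, lost a region in its first coding exon (chrX:152953902-152954291, plus strand, GC content 77.7%, p-values of 5.5e-09 and 1.8e-09). SLC2A4RG lost a region of 2 blocks in its coding sequence (chr20:62373538-62373943, plus strand, GC content 68.8%, p-values of 7.6e-04 and 4.7e-10). The mRNA of SLC2A4RG was also lower in FUSO, at 32.9 and 29.2 FPKM against 25.2 and 25.4 FPKM (limma adjusted p = 0.25).

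For the remaining lost regions the lowest p-value was higher. Their genes also had lower mean levels than SLC7A5, SLC6A8 and SLC2A4RG, from 1.68 FPKM (SLC35E2) to 18.9 FPKM (SLC38A1). The part of level in these p-values was not tested. The region of SLC9A8, a sodium-hydrogen exchanger of the Golgi, lay in the 3′UTR with p-values of 8.5e-05 and 1.7e-03. The 3′UTR regions of SLC8B1, the mitochondrial sodium-calcium exchanger, and SLC38A1 were lost with no p-value under 8e-04.

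The lost region of SLC35E2 (chr1:1660691-1660811, minus strand, p-values of 7.9e-04 and 1.4e-03) again involved SLC35E2B. A stretch of 60 bases in it was identical to a stretch of SLC35E2B, whose own region there (chr1:1594850-1595268, minus strand) was called in Control 2 and both FUSO lists. Both regions print the same window.
SLC35E2 and SLC35E2B: tgatttgtgaGGACagattgaaag
Reads that lie wholly within these 60 bases cannot be told apart, so the loss at SLC35E2 is uncertain. The whole region of 121 bases had no exact copy in SLC35E2B, and the placing of reads was not examined. Of these 2 regions, Control 1 called that of SLC35E2, Control 2 called both, and both FUSO lists called that of SLC35E2B.

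Of the gained regions, that of SLC35B1 was called with the most even p-values, 4.3e-06 and 9.8e-07, in the 3′UTR (chr17:47778624-47778743, minus strand, 120 bases, GC content 29.2%). It was the only region of this gene, whose mRNA was lower in both FUSO libraries, as given above. SLC39A9, a zinc carrier of the Golgi, gained a region in the 3′UTR (chr14:69928717-69928987, plus strand) with p-values of 9.8e-04 and 4.1e-09, beside 1 region called in all 4 lists. A further 3′UTR region of SLC39A9, just upstream, was called in Control 1 and FUSO 2. SLC2A11, a glucose and fructose carrier, gained a region at its stop codon (p-values of 4e-06 and 2e-04), which was its only region.

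SLC26A2, the sulfate carrier, gained a region in its coding sequence with p-values of 2e-04 and 1.7e-03, and SLC6A17 in the 3′UTR with 2.2e-04 and 6.9e-03. SLC6A6, the taurine carrier, gained its only region, in the 3′UTR, with p-values of 2.9e-04 and 2.2e-03. At the level of the gene, SLC35E2 had peaks only in Control lists in both replicates, and SLC2A11, SLC35B1, SLC6A6 and SLC7A11 only in FUSO lists. No share over all genes tested is given beside these counts, so they are not read as a difference. The peaks of SLC7A11 lay in different places in the 2 FUSO lists, so it has no gained region.

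**Figure D5:**
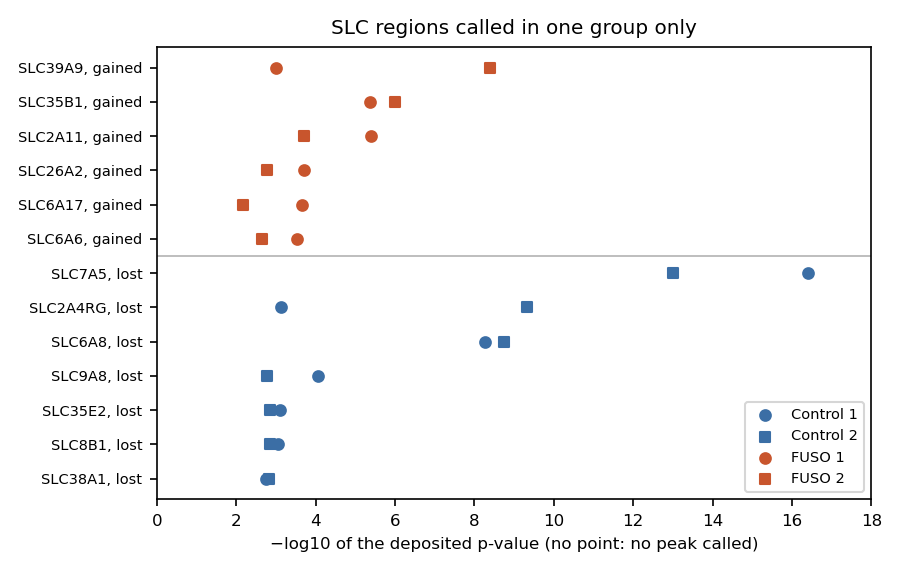
Deposited p-values, as −log10 (horizontal), of the 13 SLC regions called in both lists of 1 group and in no list of the other, with blue for Control and orange for FUSO lists, circles for replicate 1 and squares for replicate 2. The lost regions of SLC7A5, SLC6A8 and SLC2A4RG and the gained regions of SLC39A9 and SLC35B1 lie furthest to the right, and most others lie under 6.

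Median GC content was higher in the lost than in the gained SLC regions, but the ranges overlapped and no test was made. The lost SLC regions had a median GC content of 60.7% (27.1% to 77.7%) and the gained of 49.3% (29.2% to 61.2%), beside 54.6% for all SLC regions. Over all genes the medians were 61.7% for lost and 45.0% for gained regions. The part of GC-dependent recovery of fragments in these calls was not tested.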

How the data were processed

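The authors trimmed adapters (Trim Galore 0.3.3, per the submitters' processing notes), aligned reads to hg19 with HISAT2 2.1.0, and computed the deposited FPKM from the 4 input libraries with StringTie. FPKM correct for length and total, not for GC-dependent recovery. The deposited peak lists, 1 per replicate, hold a score per peak that was read as the authors' p-value. The methods name MACS2, while the lists have the layout of exomePeak. Counts were not given, so the count model the study named (DESeq2) was not used.

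Log2(FPKM + 1) values of the 11088 genes averaging 1 FPKM or more were fitted with limma 3.58.1 (R 4.3.3, eBayes with trend), with no covariate and Benjamini-Hochberg adjustment. The script was tested on simulated data. Relative depth was read from the most frequent ratio among genes at or below 0.05 FPKM, shared by 8 to 18 of 261 to 329 genes. No libraries held identical values. Values per library were compared by two-sided exact permutation.

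Peaks were joined to genes by name and placed on canonical transcripts of GENCODE 44 on GRCh37 when 90% of their bases lay on one. Between 99.06% and 99.23% of peaks with an annotated name lay on that gene. Of the members, 198 had such a transcript. GGAC was searched on the strand of the mRNA only.

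Members, lists and roles were chosen with earlier results of these data known. Named are members called, the 10 most abundant, up to 10 per direction at an unadjusted p under 0.05, members with lost or gained regions, the 5 with most regions, the 10 most abundant without a peak, 20 textbook carriers and the 5 that are no transporters, apart from a few genes that are not reported here. Alternatives were other pseudocounts, filters, scalings, fits and overlap rules, and leaving out each library.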

Additional observations from a re-analysis of the deposited data

How the results depend on the processing

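The number of SLC members called higher was 1 and changed to 0 with no filter on low values, and ranged from 0 to 2 when each library was left out, where a lone library was assumed to vary like the other group. Members higher at an unadjusted p under 0.05 numbered 6 to 19 when a library was left out, with 6 without FUSO 1 and 19 without Control 2. Members lower at that level numbered 14 after median centring and 2 to 17 when a library was left out, again without FUSO 1 and without Control 2. No setting called a member lower at an adjusted p under 0.05. The replicate numbers are only a shared label. The correlation between deviations of same-numbered libraries was 0.0243 over 11088 genes. It is 1 value, since with 2 libraries per group both pairs give the same number. The fit with the replicate number as a block called 1 member higher and 0 lower, with 10 higher and 10 lower before adjustment, and with a GC correction added after seeing the data 11 and 10.

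The FUSO minus Control difference in members with a peak was -6.5 with peaks at or below 1e-05 only, against 2.5 with all peaks, and -3 to 8 when a list was left out. The difference in SLC peaks per list was -17 to 14 when a list was left out. Lost regions numbered 11 to 34 and gained regions 12 to 33 with 1 list fewer, as fewer lists had to meet the rule. Under a 50% reciprocal overlap they were 5 and 7. Of 694 comparisons of 58 named members with an alternative, 690 stayed on their side of the threshold. The other 4 were SLC35E2B, lost in 3 settings, and SLC30A1, passed in 1. The sign differed in 49, none of them for a call. Depth in counts was unknown, so no counting error could be given.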

Other observations

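SLC genes under the floor of 1 FPKM were not without peaks. Of the 174 SLC symbols under the floor, 23 (13.2%) had a peak in at least 1 list, 14 and 13 of them in the Control lists and 17 and 12 in the FUSO lists. No share over all genes under the floor is given beside this, so it is not read as particular to SLC genes. Among the 23 were the monocarboxylate family members SLC16A7 and SLC16A10, the zinc exporter SLC30A4 and the sodium-iodide symporter SLC5A5. The lists also named 6 transcripts with an SLC symbol that the expression table did not hold, such as the antisense RNAs SLC16A1-AS1 and SLC25A25-AS1. These were chosen after their values were seen.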
